A study of Mus musculus with 8 samples.

Results

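The effect of 1 hairpin against Dnmt3l, named shDnmt3L1, was measured in mouse embryonic stem cells by setting the 2 arrays that carry its label against the 2 arrays of the control hairpin shGFP. These are 4 of the 8 Illumina expression arrays in the series, and the other 4 hold shDnmt3L2 and shDnmt3L3, 2 arrays each. The study's title concerns DNA methylation that depends on Dnmt3L and the step from stem cells towards germ cells. Every group was E14 cells, a mouse line from the inner cell mass of the blastocyst, kept in medium with 15% serum and 1500 U/ml of leukaemia inhibitory factor (LIF), a cytokine that holds these cells undifferentiated. All cells received a short hairpin RNA, which lowers the mRNA it matches, and were held in puromycin for 3 days. The shGFP cells carried a hairpin against green fluorescent protein, and the shDnmt3L1 cells a hairpin against Dnmt3l. Each hairpin is 1 sequence, and that sequence is not given in the sources used here. Loss of Dnmt3l and any other target of this hairpin cannot be told apart within these 4 arrays. The labels number the arrays of a group 1 and 2 without naming separate cultures, so the p-values measure the spread between these arrays, which may be technical. RNA came from whole cultures, so fewer cells of a type and less RNA per cell cannot be told apart.

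Dnmt3l encodes a relative of the DNA methyltransferases that has no catalytic activity of its own and stimulates Dnmt3a and Dnmt3b. LIF acts through the receptor subunits Lifr and Il6st and the kinase Jak1 on Stat3, which switches on Socs3, an inhibitor of the same receptor, and naive pluripotency factors such as Klf4, Tfcp2l1 and Gbx2. Fibroblast growth factor (FGF) acts in the same cells through the kinase ERK, whose target genes include its own brakes of the Sprouty and Dusp families. The integrated stress response slows translation when amino acids are short or proteins misfold and raises the transcription factor Atf4, which activates genes of amino acid synthesis and transport, tRNA charging and the cell death factor Ddit3.

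Promoters are shown first for 3 groups of genes whose members carried a known response element near the start of transcription. These 3 were picked, after the values were seen, because the carriers that were called went in 1 direction. RefSeq promoter windows of GRCm38.p6, from 250 bases before to 50 bases after the annotated start, were searched on both strands for 11 motifs. The Atf4 element, spelled TGATGNAA, was found in the windows of 4 of 20 stress response genes, and all 4 were lower with shDnmt3L1 (13 of all 23 genes of that list were), though the call of Asns was lost with 1 array left out (log2 difference -0.23 without shDnmt3L1 array 1, -0.30 without shDnmt3L1 array 2, -0.21 without shGFP array 2). Over 27025 gene windows it was present in 4.06%. Over all called genes with a window, it was in 2.51% of those higher and 2.48% of those lower. The stretches around these matches are printed 5′ to 3′ along the transcript, with the match in capitals. They lie at chr2:119351011-119351094 (+) for Chac1, chr2:152344011-152344084 (-) for Trib3, chr7:126625535-126625618 (-) for Nupr1 and chr6:7693187-7693270 (-) for Asns.
Chac1: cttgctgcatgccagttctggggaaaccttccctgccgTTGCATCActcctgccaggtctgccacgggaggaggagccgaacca
Trib3: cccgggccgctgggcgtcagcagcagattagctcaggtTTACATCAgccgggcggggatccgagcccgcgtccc
Nupr1: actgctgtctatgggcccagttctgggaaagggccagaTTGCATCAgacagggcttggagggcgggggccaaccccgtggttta
Asns: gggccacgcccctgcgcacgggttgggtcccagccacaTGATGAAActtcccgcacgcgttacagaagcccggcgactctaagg
Counted from the start of the transcript, the match begins at position -193 in Chac1, -110 in Nupr1, -23 in Asns and 14, inside the transcript, in Trib3. Chac1, Trib3 and Nupr1 carry it on the opposite strand, so that its reverse complement is read.

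The interferon response element, which is GAAA followed by NN and a second GAAA, was found in 11 of 23 windows of interferon genes, against 3.49% of all windows. Of these 11 genes, 7 were lower and 0 higher with shDnmt3L1, a share like that of the whole list (18 of 28 lower). Over all called genes with a window, this element was in 2.24% of those higher and 3.43% of those lower. The stretches shown lie at chr3:142620566-142620651 (+) for Gbp2, chr3:142594672-142594757 (+) for Gbp2b, chr3:142559961-142560052 (+) for Gbp3 and chr5:120887578-120887669 (-) for Oas1g, which were all lower, and at chr4:156200837-156200934 (-) for Isg15, which was not called. Capitals mark the matches on either strand.
Gbp2: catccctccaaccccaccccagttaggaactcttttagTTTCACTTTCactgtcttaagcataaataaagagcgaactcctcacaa
Gbp2b: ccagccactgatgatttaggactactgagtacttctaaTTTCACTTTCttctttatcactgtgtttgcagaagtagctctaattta
Gbp3: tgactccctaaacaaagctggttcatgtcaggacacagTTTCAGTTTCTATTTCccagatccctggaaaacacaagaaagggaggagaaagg
Oas1g: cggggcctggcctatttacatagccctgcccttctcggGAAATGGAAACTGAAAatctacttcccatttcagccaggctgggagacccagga
Isg15: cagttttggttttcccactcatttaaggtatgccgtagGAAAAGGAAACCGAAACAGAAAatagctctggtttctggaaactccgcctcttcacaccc
Isg15 held 3 overlapping matches, and Gbp3 and Oas1g held 2 each. The TEAD element, spelled GGAATG and bound by the partners of the Hippo pathway factor Yap1, was found in 9 of 14 windows of Hippo pathway genes, against 14.6% of all windows. Of these 9 genes, 4 were higher (Ptpn14, Ankrd1, Amotl2 and Axl) and 0 lower, a share no larger than that of the whole list (8 of 17 higher), and the calls of Amotl2 and Axl were lost with 1 array left out (Amotl2 0.42 without shDnmt3L1 array 1, 0.35 without shDnmt3L1 array 2, 0.25 without shGFP array 2; Axl 0.26 to 0.32 without any 1 of the 4 arrays). Over all called genes with a window, the TEAD element was in 13.1% of those higher and 10.9% of those lower. The stretches shown, again with matches in capitals, lie at chr1:189728084-189728165 (+) for Ptpn14, chr19:36119924-36120092 (-) for Ankrd1 and chr9:102717701-102717782 (+) for Amotl2.
Ptpn14: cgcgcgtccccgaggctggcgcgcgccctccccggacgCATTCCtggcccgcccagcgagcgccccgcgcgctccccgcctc
Ankrd1: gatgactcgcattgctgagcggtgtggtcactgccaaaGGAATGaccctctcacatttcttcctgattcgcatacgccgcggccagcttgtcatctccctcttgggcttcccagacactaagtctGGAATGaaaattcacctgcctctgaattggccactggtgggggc
Amotl2: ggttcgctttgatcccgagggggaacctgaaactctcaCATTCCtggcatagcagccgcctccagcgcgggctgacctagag
In these stretches no match overlapped a match to another of the motifs searched. The Stat element, spelled TTCCNGGAA, was found in 1 of 20 windows of LIF and Stat3 genes, that of Cish, against 1.15% of all windows. The other 7 motifs had few carriers or carriers called in both directions. The Egr element (GCGNGGGCG, 5.55% of all windows) was in 1 of 16 windows of ERK genes and the sterol element (TCACNCCAC, 1.22%) in 0 of 16 of cholesterol synthesis. In 10 immediate early genes the CRE (TGACGNCA, 3.37%) was in 2 and the AP-1 element (TGANTCA, 7.93%) in 0. None of these carriers was called. The endoplasmic reticulum stress element (CCACGTG, 3.94%) was in 3 of 20 windows, with 1 gene lower. The antioxidant element (TGACNNNGC, 12.5%) was in 6 of 23, with 2 lower and 2 higher, and the metal element (TGCNCNC, 50.4%) in 8 of 12, with 5 lower and 2 higher. A match describes letters in a window, and binding was not measured.

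Array values below are normalized log2 signals, and differences are between group means of them, so that a difference of 1 is a doubling. A gene was called when limma's p-value, adjusted by Benjamini-Hochberg over all 10930 genes tested, was under 0.05. Dnmt3l read 11.87 and 11.97 with shGFP and 10.51 and 10.45 with shDnmt3L1, and the groups did not overlap. It fell by 1.44 ± 0.09 (SE, 2 arrays per group; limma, adjusted p = 1.25e-05), which leaves 36.8% of the control signal, and a second probe gave 38.1%. Of 89 called genes named here or in the closing observations that had another detected probe, 46 had one whose difference was smaller by more than 1.5 times or opposite. In 8 of these genes another probe had the opposite sign. The other hairpins read -1.14 (shDnmt3L2) and -2.66 (shDnmt3L3) against shGFP, so shDnmt3L1 lay between them. Between 18111 and 19241 of 45281 probes were detected on each of the 8 arrays. Across the genes tested, the correlation was 0.996 between the shGFP arrays, 0.997 between the shDnmt3L1 arrays and 0.974 to 0.975 between arrays of different groups.

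Of the 10930 genes, 5231 were called (47.9%), 2757 higher (25.2%) and 2474 lower (22.6%) with shDnmt3L1. Calls of at least 1.5-fold numbered 1089 higher (9.96%) and 697 lower (6.38%), and those of at least 2-fold 264 higher and 111 lower. The other hairpins had 39.2% (shDnmt3L2) and 52.2% (shDnmt3L3) of genes called against the same control arrays. The median difference of all genes was 0.0086. When arrays were scaled by their medians in place of quantile normalization, 3419 genes were higher and 1747 lower, so the share of calls that were higher moved from 52.7% to 66.2%, and the median of all genes to 0.09. The arrays of the groups did not overlap for 38.2% of genes in the higher direction and 36.2% in the lower. With so many genes called, each list of genes is read against these shares. Non-overlap was more common than a call in either direction, so below it describes a gene and adds little to its call.

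**Figure D1:**
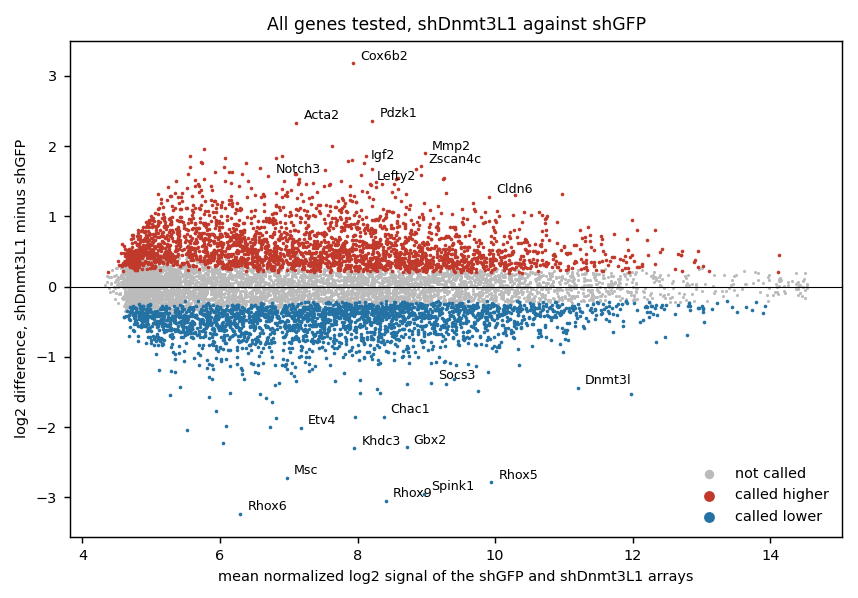
Log2 difference (shDnmt3L1 minus shGFP, y axis) against the mean normalized log2 signal of the 4 arrays (x axis) for the 10930 genes tested, 1 point per gene, red for 2757 called higher, blue for 2474 called lower and grey for the rest. Rhox6 (-3.24) and Rhox9 (-3.05) lie lowest among the labelled genes, and Dnmt3l lies at -1.44.

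The 14 largest falls were in genes of various functions. Rhox6, Rhox9 and Rhox5, homeobox genes of an X-linked cluster expressed in germ cells and placenta, had differences of -3.24, -3.05 and -2.79. Rhox6 read 8.0 and 7.83 with shGFP and 4.82 and 4.54 with shDnmt3L1, where 1 of 2 arrays detected it. Spink1, a secreted inhibitor of trypsin, read 10.40 and 10.48 against 7.41 and 7.56 and fell by 2.95 ± 0.09. It read -0.91 with shDnmt3L2 and -2.67 with shDnmt3L3. Msc, a helix-loop-helix repressor, read 8.30 and 8.36 against 5.69 and 5.53 and fell by 2.72 ± 0.08. Khdc3, a protein of the egg and early embryo, read 9.10 and 9.10 against 6.82 and 6.78 and fell by 2.3 ± 0.07, against -0.93 and -0.21 with the other hairpins. Nanos3, which protects primordial germ cells from death, read 6.51 and 6.56 with shGFP, was not detected with shDnmt3L1 and was at least 3.35-fold lower. Groups that do not overlap were a condition of this choice. Rgcc, a cell cycle regulator (-2.22), Gna14, a G protein subunit (-1.98), and Dtx3l, which interferon induces and which tags proteins with ubiquitin (-1.87, with another probe at -0.39), fell as well, and Gbx2, Etv4, Spry4 and Chac1 complete the 14 largest falls.

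The 14 largest rises were in genes of various functions. Pdzk1, a scaffold that anchors transporters at the cell surface, read 6.97 and 7.09 with shGFP and 9.39 and 9.40 with shDnmt3L1 and rose by 2.36 ± 0.09. Acta2, smooth muscle actin, read 5.93 and 5.96 against 8.31 and 8.24 and rose by 2.33 ± 0.09, with other probes between 0.80 and 1.27. Mmp2, an enzyme that degrades collagen, read 7.94 and 8.12 against 9.90 and 9.95 and rose by 1.90 ± 0.08. Groups that do not overlap were again a condition, as for the genes furthest from the other hairpins. Zfhx3, a large homeobox and zinc finger factor, rose by 2.0 (other probes 0.39 to 1.72), Cdhr1, a photoreceptor cadherin, by 1.85, Pdlim3, a partner of alpha-actinin, by 1.83, Adssl1, an enzyme of AMP synthesis, by 1.80 (other probes 0.31 to 1.45) and Add3, which caps actin, by 1.79. Rnf130, a ubiquitin ligase, rose by 1.86 and Prr15l by 1.83. Pramel20 rose by 1.95 and Lypd2 by 1.77, both detected on 1 of 2 shGFP arrays. Plch2, a phospholipase, was not detected with shGFP and was at least 3.13-fold higher. Cox6b2, a testis form of a cytochrome oxidase subunit, had the largest fitted rise, 3.18 ± 1.05, but its shGFP arrays read 8.51 and 4.17, 1 of them detected, and differed widely from each other, and another probe gave -0.07. Its call was lost with 1 array left out (3.12 without shDnmt3L1 array 1, 3.24 without shDnmt3L1 array 2).

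LIF and Stat3 genes were mostly lower with this hairpin. Of 23 members tested, 14 fell and 3 rose, and the list median was -0.40. Socs3 read 9.78 and 9.73 with shGFP and 8.39 and 8.37 with shDnmt3L1 and fell by 1.37 ± 0.07 (SE; limma, adjusted p = 7.06e-06). Bcl3, a relative of the inhibitor of NF-kappa-B that Stat3 induces, read 6.63 and 6.45 against 5.14 and 5.32 and fell by 1.31 ± 0.11. The arrays of the groups did not overlap for either gene. Mras, a small GTPase of the Ras family, read 7.79 and 7.78 against 6.44 and 6.44 and fell by 1.34 ± 0.07, and its other probe gave -1.91. Gbx2, a homeobox factor downstream of Stat3, read 9.91 and 9.80 against 7.75 and 7.38 and fell by 2.29 ± 0.12. Smaller falls were those of the pluripotency factors Tfcp2l1 (-0.66), Klf5 (-0.62) and Klf4 (-0.48), of Junb, a part of the AP-1 factor (-0.64, another probe -0.18), of Socs2 (-0.53), Ier3 (-0.40), Nfkbiz (-0.39) and the kinase Sgk1 (-0.30). Stat3 itself read 8.98 and 9.01 against 8.71 and 8.47 and fell by 0.40 ± 0.10. The receptor subunit Lifr read 5.10 and 5.16 with shGFP, was not detected with shDnmt3L1 and was at least 1.27-fold lower. With 1 array left out, the call was lost for Stat3 (-0.28 without shDnmt3L1 array 2, -0.39 without shGFP array 2), Nfkbiz (-0.34 without shDnmt3L1 array 1, -0.29 without shGFP array 1) and Sgk1 (-0.22 without shDnmt3L1 array 1, -0.23 without shGFP array 1).

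A few members went the other way. Jak1 read 7.49 and 7.40 against 8.51 and 8.49 and rose by 1.06 ± 0.07, and its other probe gave 0.29. Cish, another receptor inhibitor and the gene with the Stat element, rose by 0.85, and Lrrc34 by 0.35. Members not called were Fos (-0.20), Ptpn11 (-0.18), the receptor subunit Il6st (-0.14), Pim3 (0.00) and Jak2 (0.14), and Pim1 was not detected in either group.

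The same genes were compared with the other hairpins against Dnmt3l. The difference between shDnmt3L1 and the mean of shDnmt3L2 and shDnmt3L3 uses the shGFP arrays only in the pooled estimate of spread, and it called 1797 genes (16.4%), 1030 above (9.42%) and 767 below (7.02%) the other hairpins. Without 1 of the shDnmt3L1 arrays this count was 725 (array 1 left out) or 703 (array 2 left out), and against each hairpin alone it was 880 for shDnmt3L2 and 3860 for shDnmt3L3. Of the 23 LIF and Stat3 genes, 13 were below and 1 was above. Socs3 had a difference of -2.0 ± 0.06 from the other hairpins (limma, adjusted p = 3.07e-06), and against shGFP it read 0.30 with shDnmt3L2 and 0.96 with shDnmt3L3. Further genes below the other hairpins were Bcl3 (-1.45), Mras (-1.42), Gbx2 (-1.06), Junb (-0.86), Tfcp2l1 (-0.85), Klf4 (-0.72) and Stat3 (-0.48), and Jak1 was above them (0.30). The 3 hairpins were each set against the same control arrays, and the list medians from those comparisons were -0.40, 0.03 and 0.15 for shDnmt3L1, shDnmt3L2 and shDnmt3L3. Dnmt3l itself was 0.46 higher with shDnmt3L1 than the mean of the others (limma, adjusted p = 0.00467).

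**Figure D2:**
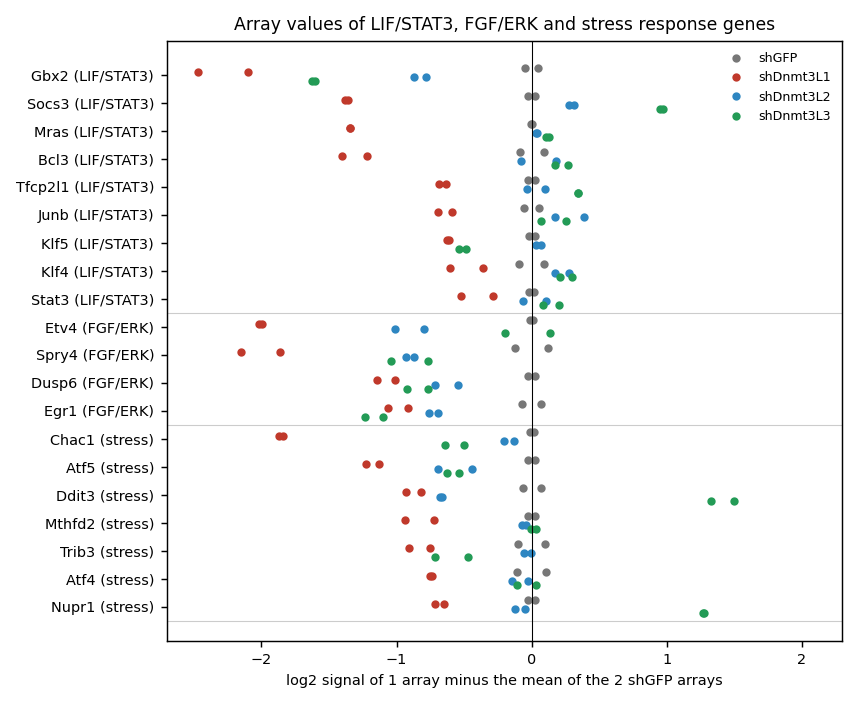
Signal of each of the 8 arrays minus the mean of the 2 shGFP arrays (log2, x axis) for 20 genes of the LIF/STAT3, FGF/ERK and stress response lists (y axis), coloured by hairpin, 1 point per array. For Socs3, Mras, Bcl3, Chac1, Mthfd2 and Atf4 both shDnmt3L1 arrays lie to the left of the other 6 arrays.

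Most naive pluripotency genes fell, while most core factors were not called. Of 14 naive genes, 8 were lower and 2 higher, with a median of -0.29, and 8 were below the other hairpins with 0 above. Besides the Stat3 targets, Spic, an ETS factor, fell by 0.79. Prdm14 (0.00), Pecam1 (-0.02) and Zfp42 (-0.22) were not called. Among core genes, 11 of 17 were not called, and the median was 0.02. Pou5f1 read 11.46 and 11.50 against 11.62 and 11.69 (difference 0.17; limma, adjusted p = 0.122). Sox2 (-0.02) and Nanog (-0.07), which with Pou5f1 hold the pluripotent state, were not called either. Dppa2, a chromatin factor of the early embryo, fell by 0.51, and its partner Dppa4 rose by 0.45 (other probes 0.01 to 0.56). The 8 embryonic stem cell markers used to check the labelled cell type were all tested, and 1, Esrrb, was lower (-0.28, with another probe at 0.01). Their summed linear signal was 40196.2 to 41424.4 on the shGFP arrays and 39639.4 to 39977.9 on the shDnmt3L1 arrays. The calls of 2 of these genes were lost with 1 array left out, Dppa2 (-0.37 without shDnmt3L1 array 2, -0.42 without shGFP array 2) and Esrrb (-0.23 without shDnmt3L1 array 2, -0.27 without shGFP array 2).

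Genes of the primed epiblast, the state that follows naive pluripotency in the embryo, were mostly higher. Of 10 members tested, 6 rose and 1 fell, with a median of 0.56, and 8 were above the mean of the other hairpins. Otx2, a homeobox factor of the epiblast and forebrain, read 10.41 and 10.46 against 11.45 and 11.26 and rose by 0.92 ± 0.09. Against shGFP, Otx2 read 0.55 with shDnmt3L2 and -1.32 with shDnmt3L3. Cldn6, a tight junction protein, read 9.20 and 9.33 against 10.60 and 10.49 and rose by 1.28 ± 0.09. The groups did not overlap for either gene. The transcription factors Sox4 and Zic2 and the secreted Wnt inhibitor Sfrp2 rose by 0.85, 0.60 and 0.60, and another probe of Zic2 gave 0.08. Fgf5, a marker of the state, was not called against shGFP (0.14), read 0.30 with shDnmt3L2 and -1.48 with shDnmt3L3, and was above the mean of these (0.73). Nodal was also not called against shGFP (0.10) and was above the mean of the other hairpins (0.43). Over the list, shDnmt3L2 had a median of 0.53 and shDnmt3L3 of -0.84 against the same controls. The call of Sfrp2 was lost with 1 array left out (0.43 without shDnmt3L1 array 1, 0.49 without shGFP array 1).

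The DNA methylation machinery was also mixed. Of 16 genes, Dnmt3l included, 8 were lower and 3 higher. Dnmt3b, a catalytic partner of Dnmt3l, read 11.86 and 11.98 against 12.66 and 12.79 and rose by 0.80, with another probe at 0.25, and read 0.78 and -1.0 with the other hairpins. Dppa3, which protects maternal methylation in the fertilized egg, rose by 0.87. The repair factor Gadd45a fell by 0.67 and the methyl-CpG binding protein Mbd1 by 0.66. The maintenance enzyme Dnmt1 (0.00), its partner Uhrf1 (0.03) and the demethylating enzyme Tet1 (0.20) were not called.

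ERK genes were called in both directions, at shares not far from those of all genes. Of 24 members, 8 fell (33.3%, against 22.6% of all genes) and 7 rose (29.2%, against 25.2%), and the list median was 0.06. Etv4, an ETS factor induced by FGF, read 8.17 and 8.19 with shGFP and 6.18 and 6.17 with shDnmt3L1 and fell by 2.01 ± 0.12 (SE; limma, adjusted p = 1.09e-05). Spry4, a Sprouty inhibitor of the pathway, read 7.61 and 7.85 against 5.59 and 5.87 and fell by 2.0 ± 0.13. Both were below the other hairpins, by differences of -1.54 and -1.10. Dusp6, the phosphatase that inactivates ERK, read 9.83 and 9.78 against 8.79 and 8.66 and fell by 1.08 ± 0.10. Egr1, an immediate early factor, read 8.62 and 8.75 against 7.77 and 7.63 and fell by 0.99 ± 0.09, and it read -0.73 and -1.16 with the other hairpins. The groups did not overlap for Dusp6 and Egr1, nor, by the choice of the largest falls, for Etv4 and Spry4. Smaller falls were those of Etv1 (-0.49), Phlda1 (-0.30) and the phosphatase Dusp4 (-0.26). With 1 array left out, the calls of Dusp4 (-0.20 without shDnmt3L1 array 2, -0.27 without shGFP array 1, -0.25 without shGFP array 2) and Phlda1 (-0.30 without shDnmt3L1 array 1, -0.30 without shDnmt3L1 array 2, -0.19 without shGFP array 2) were lost.

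Etv5, from the same ETS family as Etv4, rose by 0.27 (another probe 0.04), and the cyclin Ccnd1 by 0.26. The receptor Fgfr2 read 7.55 and 7.58 against 8.27 and 8.31 and rose by 0.72 ± 0.08. Fgfr1 was not detected with shGFP and was at least 1.76-fold higher. The ligand Fgf4 rose by 0.44 and the inhibitor Spred1 by 0.49. Il17rd, a receptor-like inhibitor, rose by 0.60 on the probe used and gave -0.56 on another, so its direction depended on the probe. The adaptors and kinases Grb2 (0.07), Shc1 (0.13), Nras (-0.19), Map2k1 (0.32) and Map2k2 (0.07) were not called, and neither were Srf (-0.13), Spred2 (0.05) and Dusp5 (0.11). Egr3 was not detected in either group. The calls of Etv5 (0.24 to 0.30 without any 1 of the 4 arrays), Ccnd1 (0.23 to 0.28 without any 1 of the 4 arrays) and Fgf4 (0.33 without shDnmt3L1 array 1, 0.33 without shGFP array 1) were lost with 1 array left out.

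Integrated stress response genes were mostly lower. Of 23 members, 13 fell and 4 rose, with a median of -0.26, and 11 were below and 2 above the other hairpins. Chac1, an enzyme that breaks down glutathione, read 9.29 and 9.32 with shGFP and 7.44 and 7.46 with shDnmt3L1 and fell by 1.85 ± 0.08 (SE; limma, adjusted p = 4.38e-06). It read -0.17 and -0.57 with the other hairpins. Atf4 read 11.29 and 11.50 against 10.64 and 10.65 and fell by 0.75 ± 0.10. Atf5, a related factor, fell by 1.18, Ddit3 by 0.87, Trib3, a pseudokinase that restrains Atf4, by 0.83, and Nupr1, a small chromatin protein, by 0.68. The groups did not overlap for any of these 6 genes, as for 36.2% of all genes in the lower direction. With shDnmt3L3, Ddit3 and Nupr1 read 1.42 and 1.27, and with shDnmt3L2 -0.67 and -0.09.

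Genes of amino acid and folate metabolism on the stress list followed. Mthfd2, a mitochondrial enzyme of folate metabolism, read 10.25 and 10.31 against 9.35 and 9.55 and fell by 0.83 ± 0.09, against -0.06 and 0.01 with the other hairpins. Further falls were those of Shmt2 (-0.52) and Psat1 (-0.33), of serine and glycine synthesis, the transporter subunit Slc3a2 (-0.35, not called under median scaling), the secreted Stc2 (-0.29), asparagine synthetase Asns (-0.26) and Ppp1r15a (-0.26), which restores translation. Ddit4, an inhibitor of the growth kinase mTOR, went against the list, reading 10.30 and 10.26 against 11.15 and 11.22, a rise of 0.90 ± 0.09. Phgdh, the first enzyme of serine synthesis, rose by 0.45, Cebpb by 0.45 and the amino acid carrier Slc38a2 by 0.29. Eif4ebp1 (-0.17), Slc7a3 (-0.11), Cebpg (0.07), Sesn2 (0.16), Vldlr (0.22) and Aldh1l2 (-0.10) were not called. Chaperones of the unfolded protein response, which answers misfolding in the endoplasmic reticulum, had a median of -0.10. Of these 21 genes, 4 were lower (19%, against 22.6% of all genes) and 2 higher (9.52%, against 25.2%). Calls lost with 1 array left out were those of Asns (-0.23 without shDnmt3L1 array 1, -0.30 without shDnmt3L1 array 2, -0.21 without shGFP array 2), Stc2 (-0.26 without shGFP array 1), Ppp1r15a (-0.21 without shDnmt3L1 array 1, -0.27 without shGFP array 1, -0.25 without shGFP array 2), Phgdh (0.33 without shDnmt3L1 array 1) and Slc38a2 (0.28 without shDnmt3L1 array 2).

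The tRNA synthetases, many of which Atf4 also activates, had a median of -0.34, with 12 of 21 lower and 1 higher. Nars, which charges asparagine tRNA, read 9.93 and 9.92 against 9.18 and 9.13 and fell by 0.77 ± 0.08. Wars and Rars, for tryptophan and arginine, had differences of -0.56 and -0.55. Hars was not detected with shDnmt3L1 and was at least 1.55-fold lower, and Cars fell by 0.78 on the probe used with 0.01 on another. Gars (0.04), Iars (0.05) and Vars (-0.07) were not called. Of the 21, 6 were below the other hairpins and 0 above. Among amino acid transporters, Slc1a4 and Slc1a1 had differences of -0.48 and -0.40, and median scaling ended the call of Slc1a1. Slc1a3, a glutamate transporter, read 7.52 and 7.23 against 8.98 and 9.11 and rose by 1.67 ± 0.11. The call of Slc1a4 was lost with 1 array left out (-0.39 without shDnmt3L1 array 2).

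Most genes that build ribosomes fell, and most ribosomal proteins of the cytosol were not called. In ribosome biogenesis, 29 of 41 genes were lower and 0 higher, with a median of -0.33 (-0.18 with shDnmt3L2 and -0.40 with shDnmt3L3). Imp4, a processing factor of the small subunit, read 10.90 and 10.92 against 9.74 and 9.86 and fell by 1.11 ± 0.08. Ncl, nucleolin, read 10.08 and 10.22 against 9.05 and 9.06 and fell by 1.10 ± 0.09. Neither gene had overlapping groups, and Utp14a (-0.99), Bop1 (-0.93) and Nolc1 (-0.94, detected on 1 of 2 shDnmt3L1 arrays) fell as well. Npm1 (-0.11) and Nop58 (-0.16) were not called. Of 50 cytosolic ribosomal protein genes, 44 were not called, and their median was 0.04. Rpl22 rose by 0.98 and Rps15 by 0.50, and Rpl21 fell by 0.52.

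In the mitochondrial ribosome, 34 of 56 proteins were lower and 6 higher, with a median of -0.31. Mrps22 read 9.71 and 9.65 against 8.54 and 8.68 and fell by 1.07 ± 0.09. Mrpl49 (-0.76), Mrpl20 (-0.74), Mrps10 (-0.74, other probes -0.92 to -0.14) and Mrpl18 (-0.71) followed. Respiratory chain complexes III to V had 12 of 33 lower and 2 higher, among them Uqcrq of complex III (-0.71). Complex I had 6 of 34 lower (17.6%, less than the 22.6% of all genes) and 2 higher, with Ndufb10 (-0.93) among the former. The tricarboxylic acid cycle had 4 of 23 lower (17.4%, against 22.6%) and 5 higher (21.7%, against 25.2%), and its median was 0.00.

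The proteasome, which degrades tagged proteins, had 22 of 33 subunits lower and 0 higher, with a median of -0.35. Psmb10, a subunit of the immunoproteasome, read 10.55 and 10.42 against 8.96 and 9.05 and fell by 1.48 ± 0.08. Core and cap subunits fell by less, for example Psma5 (-0.72), Psmd7 (-0.65) and Psmc4 (-0.58). Psmb9 (-0.11) and Psme1 (-0.05), which interferon also induces, were not called. DNA replication genes had 23 of 40 lower and 2 higher, with a median of -0.31. Rrm2, which makes deoxynucleotides, read 9.25 and 9.34 against 8.24 and 8.18 and fell by 1.08 ± 0.08 (other probes -0.98 to -0.03). The clamp loader subunits Rfc4 (-0.92) and Rfc3 (-0.80), the licensing factor Cdc6 (-0.85) and the clamp Pcna (-0.67) fell too, while the helicase subunits Mcm2 (0.07), Mcm4 (0.16) and Mcm6 (0.05) were not called. Mitosis genes had 7 of 29 lower (24.1%, close to the 22.6% of all genes), 0 higher (against 25.2%) and a median of -0.09.

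**Figure D3:**
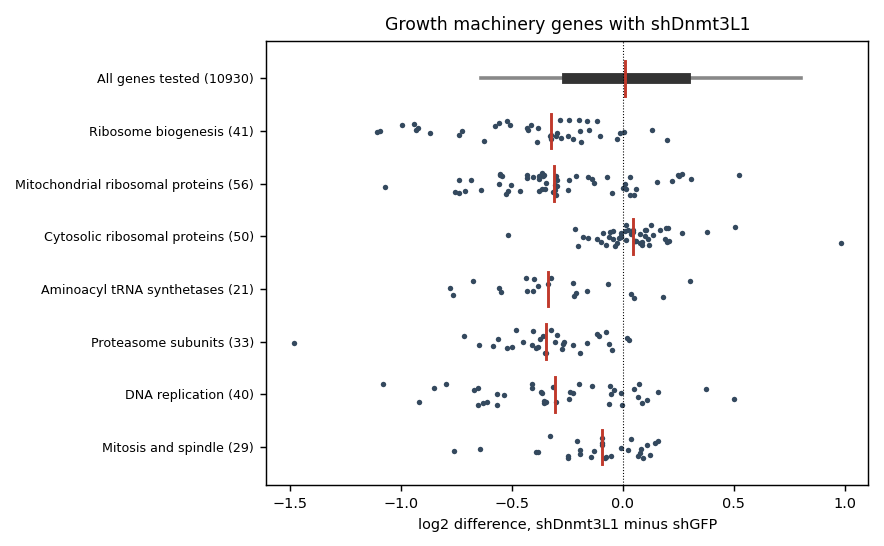
Log2 difference (shDnmt3L1 minus shGFP, x axis) of every tested gene in 7 lists (y axis, number tested in brackets), 1 point per gene with vertical scatter for legibility, and the list median as a red line. The top row shows all genes tested, with a thick bar from the 25 to the 75 percentile (-0.25 to 0.28), a thin bar from the 5 to the 95 percentile (-0.64 to 0.80) and the median; ribosome biogenesis and proteasome genes lie mostly below 0, with medians of -0.33 and -0.35, and cytosolic ribosomal proteins around 0.

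Most interferon-induced genes fell, including those whose promoters are shown above, with the exception of Isg15. Of 28 tested, 18 were lower and 1 was higher, with a median of -0.38 (-0.34 with shDnmt3L2 and -0.77 with shDnmt3L3). Gbp2, a guanylate-binding protein that attacks pathogen vacuoles, read 7.63 and 7.53 against 6.04 and 5.82 and fell by 1.65 ± 0.15. Gbp2b, of the same family, fell by 1.52, Gbp3 by 0.92, and Parp14, an ADP-ribosyltransferase, by 1.53. Oas1g, of the family that makes the activator of RNase L, read 8.42 and 8.40 against 7.22 and 7.15 and fell by 1.23 ± 0.10. Isg15, a ubiquitin-like modifier, read 4.94 and 5.08 against 4.84 and 5.18 (0.00), and its groups overlapped. Stat2, a factor that carries the interferon signal, was not called (0.08). Of the 28, 2 were below and 4 above the mean of the other hairpins, against 7.02% and 9.42% of all genes.

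Most Notch genes rose, among them a receptor and modifiers. Of 15 tested, 11 were higher and 2 lower, with a median of 0.68 (0.49 with shDnmt3L2 and 0.49 with shDnmt3L3). The receptor Notch3 read 5.91 and 5.92 against 7.43 and 7.55 and rose by 1.57 ± 0.08. Mfng, which modifies the receptor with sugar, rose by 0.93, and Dtx1, which binds its intracellular part, by 1.08. Hes6, of the same family as Hes1, rose by 0.82. Maml2, a coactivator, fell by 1.10, and the target Hes1 was not called (0.19).

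In Nodal and TGF-beta signalling, which keeps epiblast identity, 11 of 18 genes were higher and 3 lower, with a median of 0.42. Lefty2, a secreted inhibitor that Nodal itself induces, read 7.39 and 7.51 against 8.90 and 8.92 and rose by 1.46 ± 0.08. Lefty1, its relative, read 9.62 and 9.66 against 10.94 and 10.94 and rose by 1.30 ± 0.08. The groups lay apart in both, and the other hairpins read 1.31 and 0.23 for Lefty2 and 1.13 and -0.07 for Lefty1. The proteases that mature such ligands, Furin and Pcsk6, rose by 1.49 and 1.13. Tgfb1 was not detected with shDnmt3L1 and was at least 1.69-fold lower, and the coreceptor Tdgf1 was not called (0.08). In the BMP family, the ligand Bmp4 read 9.03 and 9.0 against 7.65 and 7.45 and fell by 1.46 ± 0.11. Its target Id3 fell by 0.91, while Id2, another of that kind, rose by 0.61 on the probe used. Bmp7 rose by 1.12 on the probe used and gave -0.19 on another.

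Wnt genes had 9 of 26 higher (34.6%, against 25.2% of all genes) and 4 lower (15.4%, against 22.6%). Above the mean of the other hairpins were 9 of the 26, against 9.42% of all genes. Against shGFP the list medians were 0.22 with shDnmt3L1, 0.24 with shDnmt3L2 and -0.13 with shDnmt3L3. By these medians the list did not lie higher with shDnmt3L1 than with shDnmt3L2. Sp5, a target of the pathway, read 6.6 and 6.65 against 5.18 and 4.92 and fell by 1.58 ± 0.11, against -0.66 and -1.91 with the other hairpins. Sfrp1, a secreted inhibitor, rose by 1.07 and Tnfrsf19 by 0.65. The receptor Fzd2 was not detected with shGFP and was at least 1.55-fold higher. The target Axin2 was not called (0.16).

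Insulin-like growth factor and PI3K genes had 17 of 28 higher and 4 lower, with a median of 0.34. The imprinted growth factor Igf2 read 7.16 and 7.26 against 8.99 and 8.96 and rose by 1.76 ± 0.08, with 1.04 for shDnmt3L2 and 1.13 for shDnmt3L3, and it was 0.68 above the other hairpins. Igfbp5 and Igfbp2, which bind the factor outside the cell, rose by 1.43 and 1.06. The insulin receptor Insr rose by 0.98 on the probe used and gave -0.07 on another. Among 40 imprinted genes tested, 15 were higher and 5 lower, with a median of 0.16, so Igf2 stood well above its list.

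Most matrix genes measured rose. Of 17 basement membrane genes, 10 were higher and 1 lower, with a median of 0.51, and of 21 genes of collagen folding and matrix enzymes 12 were higher and 2 lower, with a median of 0.48. Col4a1, a type IV collagen chain, read 6.27 and 6.41 against 7.74 and 7.70 and rose by 1.38 ± 0.08. Its partner Col4a2 rose by 1.20 and Col18a1 by 1.01. The laminin chain Lamb3, detected on 1 of 2 shGFP arrays, rose by 1.76. Serpinh1, a collagen chaperone, read 8.07 and 7.94 against 9.64 and 9.73 and rose by 1.68 ± 0.09. Loxl1, which crosslinks matrix, rose by 1.21 and the prolyl hydroxylase P4ha1 by 0.92. Lama1, another laminin chain, was not called (-0.13), read 0.82 and 1.12 with the other hairpins and was below their mean (-1.10).

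Markers of fibroblasts moved beside these matrix genes. Of 22 listed fibroblast and feeder cell genes, 11 were tested, 8 were higher and 1 lower. Besides Acta2 and Mmp2, Fbln1, a matrix protein, rose by 1.35, the surface protein Thy1 by 1.20 and the collagen chain Col5a1 by 1.17, while Vim, an intermediate filament, fell by 0.44. Of 10 defining fibroblast markers, 4 were tested (Thy1, Pdgfrb, Vim and Acta2), and Pdgfrb was not called (0.20). Their summed linear signal was 620.1 to 630.1 on the shGFP arrays and 991.3 to 1003.7 on the shDnmt3L1 arrays. This sum includes Acta2 on the probe used, which rose by 2.33, more than its other probes (0.80 to 1.27). Col1a1, Col1a2, Col3a1, Lum, Dcn and Postn did not reach the detection rule of 2 arrays among all 8. Of 8 markers of extraembryonic endoderm, which secretes basement membrane, Dab2 rose by 1.64 (other probes 0.34 to 1.25) and Sox7 fell by 0.38, and Gata4, Gata6, Sox17, Pdgfra, Afp and Ttr did not reach the rule. The summed signal of Dab2 and Sox7 was 73.9 to 78.9 with shGFP and 137.5 to 141.6 with shDnmt3L1. The part of either cell type in the matrix genes was not tested. The call of Sox7 was lost with 1 array left out (-0.29 without shDnmt3L1 array 1, -0.30 without shGFP array 1).

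Epithelial junction genes had 11 of 22 higher and 2 lower, with a median of 0.33. Besides Cldn6, the claudin Cldn4 rose by 1.15 and the cadherin Cdh3 by 1.15 (other probes 0.06 to 0.84). Cldn5 was not detected with shGFP and was at least 2.42-fold higher, and Cldn3 at least 1.75-fold. In the Hippo pathway, which senses cell contact, 8 of 17 were higher and 2 lower. The phosphatase Ptpn14 read 6.18 and 6.17 against 7.69 and 7.67 and rose by 1.5 ± 0.09. The scaffold Amotl1 and the factor Tead2 rose by 1.0 and 0.87, and Stk4, the kinase at the head of the pathway, fell by 0.47. Of the genes whose promoters are shown, Ankrd1 was not detected with shGFP and was at least 1.24-fold higher, and Amotl2, detected on 1 of 2 shGFP arrays, rose by 0.38. Yap1 was not called (0.16). The call of Amotl2 was lost with 1 array left out (0.42 without shDnmt3L1 array 1, 0.35 without shDnmt3L1 array 2, 0.25 without shGFP array 2).

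Lysosome and autophagy genes had 20 of 40 higher and 3 lower, with a median of 0.26. Map1lc3b, which marks autophagosomes, read 7.33 and 7.35 against 8.44 and 8.07 and rose by 0.91 ± 0.12. Lamp1, a lysosomal membrane protein, rose by 0.81 and Npc1, which exports cholesterol, by 0.77 on the probe used. The autophagy enzyme Atg3 fell by 0.63. Ion pumps and channels had 13 of 20 higher and 2 lower, among them the potassium channel Kcnk1 (0.83) and the sodium pump subunit Atp1b1 (0.69). Glycolysis genes had 9 of 21 higher and 0 lower, with a median of 0.20. Hk1, which traps glucose, rose by 0.92, and Pfkm, of the committing step, by 0.79, while Gapdh (0.05), Pgk1 (0.03) and Ldha (-0.05) were not called. Of 20 hypoxia genes, 10 were higher, among them the carbonic anhydrase Car12 (1.13) and the oxygen sensor Egln3 (0.75), and 3 lower.

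Of 27 p53 targets, 16 were higher and 1 lower, with a median of 0.35 (0.35 with shDnmt3L2 and 0.52 with shDnmt3L3). Ephx1 and Dcxr, enzymes of detoxification and sugar metabolism, rose by 1.06 and 0.87, and Ddit4l, an inhibitor of mTOR, by 0.96. Of 15 histone genes, 11 were higher and 2 lower, with a median of 0.44. H2bc4 and H1f2, genes of the replication type, rose by 1.46 and 1.22. Histone genes share sequence, so their probes may read close copies. Genes of the two-cell-like state, a rare state of these cultures that resembles the embryo at genome activation, had 6 of 7 higher, with a median of 1.23 (1.14 with shDnmt3L2 and 0.26 with shDnmt3L3). Zscan4c read 8.13 and 8.0 against 9.79 and 9.77 and rose by 1.71 ± 0.10. Tcstv1 rose by 1.23 and Pramel16 by 1.53, and all 3 belong to families of close copies that their probes may share.

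**Figure D4:**
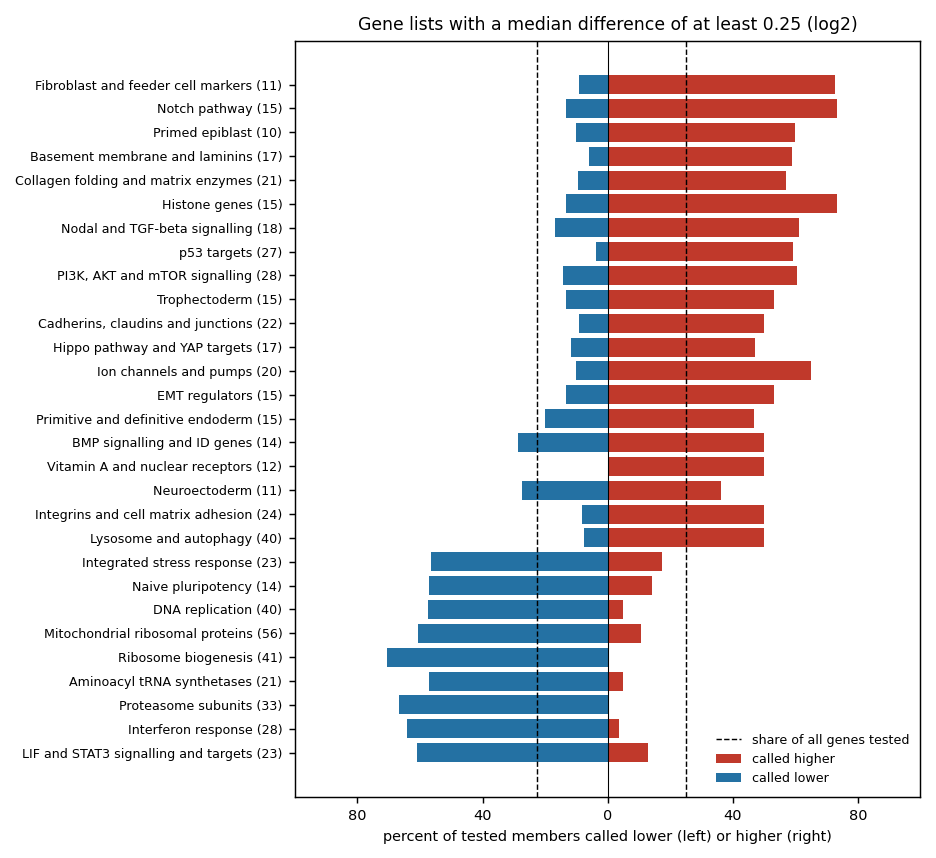
Percent of the tested members of a gene list called lower (blue, left) or higher (red, right) with shDnmt3L1, for the 29 of 78 lists with at least 10 tested genes that had a median difference of at least 0.25 in size, ordered by median, with the number tested in brackets. Dashed lines mark the shares of all genes tested, 22.6% lower and 25.2% higher; 20 of the lists shown had a median above 0 and 9 below.

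The genes that set shDnmt3L1 furthest from the mean of the other hairpins were taken from those called in the same direction against shGFP and against the other hairpins, of which there were 695 higher in both and 412 lower in both. Another 85 were higher against shGFP and lower against the other hairpins, and 64 were the reverse. Both comparisons use the same shDnmt3L1 arrays, so agreement in direction is partly built in. Among genes lower in both, the 10 furthest below were Socs3, Khdc3 (-1.73), Etv4, Chac1 (-1.48), Bcl3, Insl3 (-1.43), Mras, Nupr1 (-1.27), Ddit3 (-1.24) and S100a13 (-1.18). Insl3, a peptide hormone, read 7.10 and 7.22 against 5.95 and 5.92 and fell by 1.23 ± 0.08, and S100a13, a calcium-binding protein, fell by 0.77. Against shGFP they read -0.52 and -0.16 with shDnmt3L2 and 0.93 and 0.99 with shDnmt3L3. The 10 furthest above were Pdzk1 (1.64), Dpp4 (1.42), Slc40a1 (1.41), Map7d3 (1.34), Otx2 (1.30), Runx1t1 (1.27), Cachd1 (1.20), Aph1a (1.19), Vrtn (1.16) and Vstm2b (1.16). Dpp4, a surface protease, read 7.55 and 7.55 against 8.38 and 8.44 and rose by 0.85 ± 0.07, and it read 0.65 with shDnmt3L2 and -1.78 with shDnmt3L3. Slc40a1, the iron exporter, rose by 0.26 and read -0.53 and -1.75 with the other hairpins. Runx1t1, a transcriptional corepressor detected on 1 of 2 shGFP arrays, rose by 1.70. Aph1a, a subunit of gamma-secretase, rose by 0.91 on the probe used and gave 0.18 on another, Map7d3 rose by 0.60, Cachd1 by 1.16 and Vrtn by 0.74, and these 4 read 0.71, 0.12, 0.73 and 0.51 with shDnmt3L2 and -1.28, -1.60, -0.81 and -1.35 with shDnmt3L3. Against shDnmt3L2 alone, limma did not call Dpp4 (0.21, adjusted p = 0.116), Aph1a (0.20, adjusted p = 0.252), Vrtn (0.23, adjusted p = 0.129) or Ddit3 (-0.20, adjusted p = 0.207), so most of their distance from the mean came from shDnmt3L3. The call of Aph1a against shGFP was lost (0.18) when only probes detected on all 8 arrays were used. Vstm2b was not detected with shGFP and was at least 1.88-fold higher. The call of Slc40a1 against shGFP was lost with 1 array left out (0.22 to 0.31 without any 1 of the 4 arrays).

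**Figure D5:**
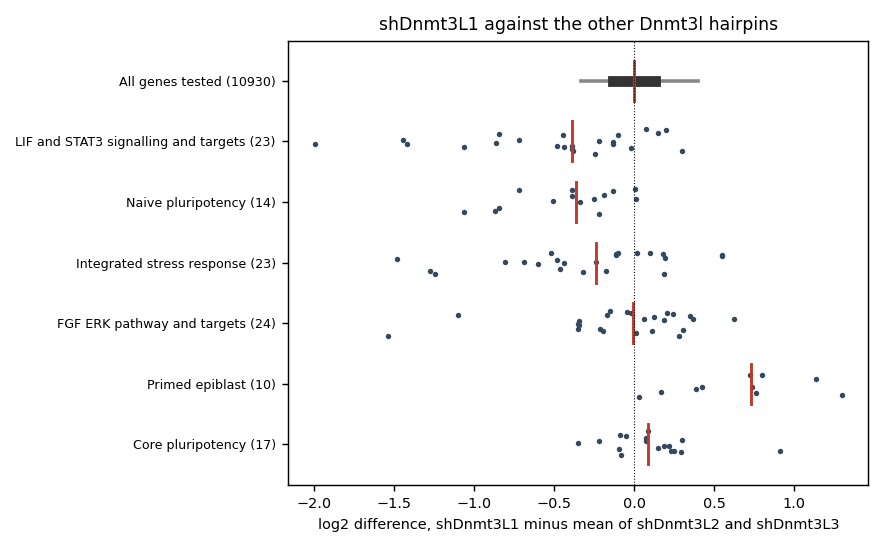
Log2 difference between shDnmt3L1 and the mean of shDnmt3L2 and shDnmt3L3 (x axis) for every tested gene of 6 lists (y axis, number tested in brackets), 1 point per gene, with the list median as a red line and, in the top row, all genes tested (25 to 75 percentile from -0.13 to 0.13, 5 to 95 percentile from -0.34 to 0.40). The medians were -0.39 for LIF and STAT3 genes, -0.36 for naive pluripotency, -0.24 for the stress response and 0.73 for the primed epiblast. For the primed epiblast, the medians against shGFP were 0.56 with shDnmt3L1, 0.53 with shDnmt3L2 and -0.84 with shDnmt3L3.

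Chromosomes and signal levels differed in the share of genes called. Chromosome 16 had a median difference of -0.10, with 17.4% of its 340 genes higher and 28.8% lower. Chromosome 8 had a median of 0.07, with 30.7% of 600 genes higher and 20.8% lower. Against the same control arrays, the medians on these chromosomes were -0.07 and 0.05 with shDnmt3L2 and -0.07 and 0.105 with shDnmt3L3. Among the 2733 dimmest genes, 16.6% were higher and 12.7% lower, against 26.4% and 25.1% among the 2733 brightest. By the number of CpG sites in the promoter window, known for 8840 genes, the share higher was 21.4% for 0 to 4 sites, 28.0% for 5 to 9, 21.6% for 10 to 19 and 26.4% for 20 or more. The share lower was 19%, 19.9%, 25.6% and 22.5% in the same order, so neither share followed the number of sites steadily.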

How the data were processed

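The series measured total RNA of E14 cells on 8 Illumina bead arrays, 2 for each of 4 hairpins. The authors deposited a table of non-normalized intensity values, averaged over the beads of a probe and not background-subtracted, with a detection p-value beside each, made with GenomeStudio 2011.1 per the submitters' processing notes. The authors also deposited processed intensity values, background-subtracted and set to a common distribution as the values show, with steps not given in the sources used here, which served as an alternative.

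From the non-normalized intensities, limma 3.58.1 in R 4.3.3 estimated background by normexp from the detection p-values (936 negative controls), added an offset of 16, quantile-normalized all 8 arrays and took log2 (neqc). Of 45281 probes, 34885 were annotated with 1 gene symbol, 18 with several and 10378 with none in the platform annotation. Probes with 1 gene and a detection p-value under 0.05 on at least 2 of 8 arrays were kept, and the brightest stood for its gene. limma's lmFit and eBayes fitted 4 group means, with 4 residual and 4.64 prior degrees of freedom. p-values were two-sided and Benjamini-Hochberg adjusted over 10930 genes. Where 1 group had no detected array for a gene, the fold, written "at least", is a lower bound against the lowest detected signal of each array. Precision is limited by 2 arrays a group.

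Named genes were Dnmt3l, the 14 largest rises and falls among called genes with non-overlapping groups, detected on both arrays of the higher group and not named as Gm, Rik, LOC or clones, the 10 furthest above and below the other hairpins on the same conditions, up to 5 called members with the largest difference and up to 3 not called per list, and all members of the LIF, ERK and stress lists. Gbp3, Amotl2 and Axl were added for their promoters after their values were seen. The groups, members and lists were chosen with earlier results of these data known. Lists are described by counts and medians, with no test. Promoter windows came from RefSeq (GRCm38.p6), matched to 8840 of the genes tested. Alternatives changed the arrays in the fit, normalization, background correction and offset, probe filter, probe choice, spread model, source table, replicate block and each array left out.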

Additional observations from a re-analysis of the deposited data

Results flagged for a closer look

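Results in which shDnmt3L1 differed from the mean of the other hairpins against Dnmt3l, by limma's test of that difference with Benjamini-Hochberg adjustment, are given here as values. The test called 1797 genes. The 10 genes furthest above that mean, each also called higher against shGFP, differed by 1.64 (Pdzk1), 1.42 (Dpp4), 1.41 (Slc40a1), 1.34 (Map7d3), 1.30 (Otx2), 1.27 (Runx1t1), 1.20 (Cachd1), 1.19 (Aph1a), 1.16 (Vrtn) and 1.16 (Vstm2b) on the log2 scale. The 10 furthest below, each also called lower against shGFP, differed by -2.0 (Socs3), -1.73 (Khdc3), -1.54 (Etv4), -1.48 (Chac1), -1.45 (Bcl3), -1.43 (Insl3), -1.42 (Mras), -1.27 (Nupr1), -1.24 (Ddit3) and -1.18 (S100a13). Against shDnmt3L2 alone, limma did not call Dpp4 (0.21, adjusted p = 0.116), Aph1a (0.20, adjusted p = 0.252), Vrtn (0.23, adjusted p = 0.129) or Ddit3 (-0.20, adjusted p = 0.207).

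Further calls lay in probes that the comparisons leave out because the annotation gives them no single gene. Of 3453 such probes that were detected, 610 were called higher and 594 lower with shDnmt3L1 by limma's test, adjusted over all detected probes without a single gene. These are smaller shares than the 25.2% higher and 22.6% lower of all genes tested. The largest rise among these probes was 2.60 and the largest fall -2.49 on the log2 scale.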

How the results depend on the processing

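Over 15 alternative settings, the count of genes called against shGFP (5231) ranged from 3963 to 5661. It was 3963 to 4284 when 1 array was left out, a fit in which the lone array is assumed to vary like the other groups. The fall of Dnmt3l ranged from -1.61 to -1.39 and was called in every setting, with -1.49 to -1.39 when 1 array was left out. The count against the other hairpins (1797) was 880 against shDnmt3L2 alone and 3860 against shDnmt3L3 alone, 703 to 1697 when 1 array was left out, 1643 under the authors' processed values and 2612 without background correction. The lowest values, 725 and 703, came without shDnmt3L1 replicate 1 and 2. With the replicate block, the counts were 5147 and 1652 and Dnmt3l read -1.44. Arrays with the same replicate number did not deviate together (correlation -0.01 between shGFP and shDnmt3L1), so the numbers are not treated as pairs.

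Of 264 named genes other than Dnmt3l, 218 kept their direction and their side of the threshold in every setting where they were tested, and 0 reversed. Leaving out 1 array lost the call of 22 (12 without each shGFP array, 15 without shDnmt3L1 replicate 1 and 14 without replicate 2): Stat3, Esrrb, Sgk1, Nfkbiz, Asns, Stc2, Ppp1r15a, Phgdh, Dusp4, Phlda1, Etv5, Fgf4, Ccnd1, Slc38a2, Slc40a1, Sox7, Sfrp2, Dppa2, Amotl2, Axl, Slc1a4 and Cox6b2. Another setting lost the call of 16. Median scaling lost 10 (Ccnd1, Dusp4, Nfkbiz, Phlda1, Ppp1r15a, Slc1a1, Slc38a2, Slc3a2, Sox7 and Stc2) and gave 13 others, and the cause was not tested. The mean of detected probes lost Esrrb, Etv5 and Il17rd, no background correction Amotl2 and Sox7, detection on all 8 arrays Aph1a, no detection filter Cox6b2 and Etv5, the authors' processed values and the replicate block Etv5, and a fit of the 4 arrays alone Cox6b2. Of 37 lists with a median of at least 0.2 in size, 0 changed sign in a setting. Genes near the detection limit have bounds, not folds.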

Other observations

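Several gene groups outside the report's comparisons are described here. Genes of the trophectoderm, the outer layer of the blastocyst, had 8 of 15 higher and 2 lower, with a median of 0.34. The 2 lower members, Rhox6 (-3.24) and Rhox9 (-3.05), were among the largest falls of all genes. Krt18, a keratin of simple epithelia, read 5.95 and 6.19 against 6.92 and 6.88 and rose by 0.84 ± 0.10. Plac8, a placental protein, rose by 1.11, and Krt7, detected on 1 of 2 shGFP arrays, by 1.28. Of 6 defining trophectoderm markers, Krt7 and Eomes were higher, with a summed signal of 54.3 to 60.4 with shGFP and 111.2 to 119.5 with shDnmt3L1, and Cdx2, Elf5, Gata3 and Hand1 did not reach the detection rule. The shGFP sum of these 2 genes lay near the detection limit, where the lowest detected log2 signals were 4.87 and 4.82. Nuclear receptor and vitamin A genes had 6 of 12 higher and 0 lower. Rxra, the shared partner of these receptors, rose by 1.11, and Crabp2, which carries retinoic acid to them, by 0.89.

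RNA helicases and exosome subunits, which process and degrade RNA in the nucleus, had 12 of 26 lower and 3 higher, with a median of -0.18. Dhx37, a helicase of ribosome assembly, read 6.42 and 6.36 against 5.52 and 5.49 and fell by 0.89 ± 0.13. The exosome subunits Exosc5 and Exosc4 had differences of -0.67 and -0.64. Purine and pyrimidine synthesis had 12 of 24 lower and 8 higher, with Adsl (-0.72) among the former and Prps2 (0.98) among the latter. In the circadian clock, 3 of 11 genes were lower and 2 higher (27.3% and 18.2%, not far from all genes), with a median of 0.05. Per2 fell by 1.06 and Arntl by 0.73, and Per1 was not called (0.11). Antioxidant genes had 10 of 26 lower and 5 higher, with a median of -0.05, and Gpx1 read 12.77 and 12.70 against 11.24 and 11.18, a difference of -1.53.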
